A study of Arabidopsis thaliana with 24 samples.

Results

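The heat response of exa1-1 seedlings was read from polysome-bound mRNA, as the difference between 3 libraries of plants kept at 39 °C for 60 min and 3 libraries of plants kept at 23 °C for 60 min. These 6 libraries were taken by their genotype and temperature labels from the 24 libraries of the study, and every expressed gene was considered: 20923 of the 32833 genes in the table had enough counts to be tested. The study covers Arabidopsis thaliana wild type and the exa1-1 mutant, with 3 libraries in each of 8 groups (2 genotypes in 1/2 MS medium, NaCl, 23 °C or 39 °C). All plants were whole seedlings, 9 days old, raised on 1/2 MS medium that held 1% sucrose. The 6 wild-type libraries at 23 °C and 39 °C are used below to show where exa1-1 differed, and they also entered the same fit and so its estimate of spread and the TMM scaling. A fit on the 6 exa1-1 libraries alone called 7816 genes higher and 8501 lower, against 7961 and 8661 in the joint fit. The mutant is represented by 1 allele, and no complemented line was analysed here.

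When a plant cell warms suddenly, heat shock factors of class A1, held inactive in unstressed cells by HSP70 and HSP90, become free to bind heat shock elements in DNA and switch on a second tier of factors and a large set of chaperones. Small heat shock proteins hold unfolding proteins, HSP70 and HSP90 refold them with the help of co-chaperones, and the HSP100 protein HSP101 dissolves aggregates. Heat also restricts the translation of most mRNAs while heat shock mRNAs are loaded on ribosomes. EXA1 is a GYF-domain protein that binds cap-binding proteins of the eIF4E family.

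Heat shock elements are built from alternating GAA and TTC units, and the 250 bases before the annotated start of 4 strongly raised genes are printed to show how such units lie. The sequences are those of RefSeq's TAIR10.1 assembly, read 5′ to 3′ on the strand of the gene, with every GAANNTTC or TTCNNGAA in capitals. The regions are chr3:16984868-16985117 (minus strand) for HSP17.4-CI, chr2:11135374-11135623 (plus strand) for HSFA2, chr3:2955906-2956155 (plus strand) for APX2 and chr1:27940370-27940619 (minus strand) for HSP101.
HSP17.4-CI: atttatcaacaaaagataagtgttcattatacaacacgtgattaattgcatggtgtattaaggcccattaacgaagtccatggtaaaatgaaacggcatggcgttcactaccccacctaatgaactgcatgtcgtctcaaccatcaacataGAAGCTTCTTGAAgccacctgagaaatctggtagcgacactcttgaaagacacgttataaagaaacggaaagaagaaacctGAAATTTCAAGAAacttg
HSFA2: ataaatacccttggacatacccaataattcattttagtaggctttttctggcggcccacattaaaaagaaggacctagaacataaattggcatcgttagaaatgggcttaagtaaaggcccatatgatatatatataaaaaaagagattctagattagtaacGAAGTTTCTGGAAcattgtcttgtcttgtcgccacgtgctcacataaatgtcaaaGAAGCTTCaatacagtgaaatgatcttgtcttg
APX2: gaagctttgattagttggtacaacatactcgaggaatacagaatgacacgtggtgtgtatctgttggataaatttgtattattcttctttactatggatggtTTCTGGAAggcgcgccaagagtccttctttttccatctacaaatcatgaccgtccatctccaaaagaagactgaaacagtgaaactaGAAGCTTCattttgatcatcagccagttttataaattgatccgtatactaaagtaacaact
HSP101: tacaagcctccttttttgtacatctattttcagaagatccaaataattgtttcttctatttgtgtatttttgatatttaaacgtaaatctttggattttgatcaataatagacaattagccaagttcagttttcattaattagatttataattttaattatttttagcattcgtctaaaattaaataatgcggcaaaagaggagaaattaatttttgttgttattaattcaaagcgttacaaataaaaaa
The HSP17.4-CI region held 2 copies of GAANNTTC, each followed after NN by a further GAA, and the unit pair nearest to the gene starts 13 bases before it. The HSFA2 region held 2 copies, 1 of them followed by a further GAA in the same way. The APX2 region held 1 copy of GAANNTTC and a separate TTCNNGAA. No GAANNTTC was found in the HSP101 window, which says only that these letters are not in those 250 bases. Both GAANNTTC and an extended element (a GAANNTTC with NN and a further GAA after it, or a further TTC and NN before it) were searched on both strands in all promoters, and every extended element also holds a GAANNTTC. For this search a promoter ran from 250 bases before to 50 bases after the annotated start, so it was longer than the printed regions. GAANNTTC was present in 11.4% of the 20845 promoters of tested genes, and the extended element in 0.571%. Of the 148 genes called higher in exa1-1 by at least 6 on the log2 scale 35 held GAANNTTC and 15 the extended element (10.1%), and of 460 genes higher by 3 to 6 the numbers were 81 and 17 (3.70%). Of 5344 genes lower by at least 1, the numbers were 575 (10.8%) and 13 (0.243%). These classes were formed on the contrast itself, so the shares are a description. Among gene groups described below, GAANNTTC was in 2 of 13 promoters of cytosolic and peroxisomal small heat shock protein genes and 3 of 5 organellar ones. The numbers were 5 of 14 for HSP70, 0 of 7 for HSP90, 1 of 4 for HSP100 and 3 of 13 for co-chaperone genes. They were 5 of 19 for heat shock factors, 2 of 12 for other regulators and 1 of 21 for endoplasmic reticulum folding genes. The printed regions thus do not stand for all of these genes.

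The heat response of exa1-1 touched most of the measured genes, and its balance depended on how libraries were scaled. Library totals ran from 17912315 to 20080217 counts. With TMM scaling, which takes most genes to be unchanged between libraries, 7961 genes (38.0% of those tested) were higher and 8661 (41.4%) lower at 39 °C (edgeR's quasi-likelihood test, Benjamini-Hochberg adjusted p under 0.05, n = 3 against 3), and the median log2 fold change was -0.10. With library totals alone, 2888 genes (13.8%) were higher and 15679 (74.9%) lower, and the median was -1.05. The TMM factors that multiply the library totals were 1.373 to 1.394 at 23 °C and 0.708 to 0.714 at 39 °C. All 2888 genes higher by library totals were also higher by TMM, and all 8661 genes lower by TMM were also lower by totals. This nesting is no separate support, because the change of scaling shifts most log2 fold changes down by a similar amount. For the same reason, falls with TMM named below as falls with either scaling are not found independently by totals. The direction of 3252 genes flipped, from higher with TMM to lower with totals, and another 1821 were higher only with TMM. A change of at least 2-fold was reached by 3578 of the higher (17.1% of all tested) and 5353 of the lower genes (25.6%) with TMM. Which scaling is closer to the amount of polysomal mRNA per plant cannot be told from these libraries. Fold changes below are on the TMM scale unless library totals are named, levels are TMM-scaled CPM (counts scaled to a common library size), and a gene is called where its adjusted p is under 0.05. The material is polysomal mRNA of whole seedlings, so fewer cells of a type and less RNA per cell cannot be told apart, and with no total RNA analysed here neither can the amount of an mRNA and its loading on ribosomes. The labels do not say whether replicates were separate cultures, so p-values measure the spread between these libraries, which may be technical.

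EXA1 (AT5G42950, chr5:17224270-17231384, plus strand, 10 exons in RefSeq's TAIR10.1 annotation), the mutated gene, was at 5.36, 5.49 and 6.66 CPM in exa1-1 at 23 °C and at 7.67, 6.02 and 6.07 CPM at 39 °C. In wild type it was at 84.3, 81.1 and 80.8 CPM and 80.3, 77.2 and 75 CPM. All 6 mutant libraries lay far below all 6 wild-type libraries. The heat contrast of the remaining EXA1 counts in exa1-1 was 0.18 ± 0.12 (SE) on the log2 scale with TMM (adjusted p = 0.175) and -0.78 with library totals (adjusted p = 3.11e-08).

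Among the transcription factors that run the response, HSFA2 rose most, and the class A1 factors that start it rose by much less. HSFA2 was at 1.29, 0.706 and 0.979 CPM at 23 °C and at 7094, 7234 and 7192 CPM at 39 °C in exa1-1. It went from near absence to the highest level per transcript length of any heat shock factor gene, with a mean of 2721 FPKM at 39 °C. Its log2 fold change was 12.80 ± 0.104 (SE; adjusted p = 5.36e-24), and 11.84 with library totals. HSFA7B, a target of the class A1 factors, was at 0.107, 0 and 0.157 CPM and reached 457, 425 and 441 CPM, a log2 fold change of 12.18 ± 0.112. Its paralogue HSFA7A was already expressed at 21.2, 22.8 and 23.3 CPM and reached 516, 527 and 513 CPM. HSFB1, a class B factor that acts mainly as a repressor, went from 53.4, 53.9 and 50.6 CPM to 1565, 1678 and 1556 CPM. In each of these genes the libraries of the 2 temperatures did not overlap.

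Of the 21 heat shock factor genes 19 could be tested, and 14 were higher and 5 lower at 39 °C (background 38.0% and 41.4%), with a median log2 fold change of 2.18 against -0.10 for all genes. HSFB2B and HSFB2A, which also belong to the repressor class, rose by 4.26 and 3.93. HSFA3, which acts downstream of DREB2A, went from 7.92 to 146 CPM on average and was called higher. The class A1 genes HSFA1E, HSFA1D, HSFA1A and HSFA1B rose by 2.57, 2.18, 1.43 and 0.95 on the log2 scale. With library totals HSFA1E and HSFA1D were still higher (1.61 and 1.22), while HSFA1A (0.48) and HSFA1B (-0.00) were not called. HSFC1 and HSFA4A flipped with the scaling, from 0.57 to -0.39 and from 0.35 to -0.60. The 5 genes that fell with either scaling were HSFA5 (-0.51 with TMM), HSFB4 (-0.82), a regulator of root stem cell divisions, HSFA8 (-0.45), HSFA4C (-0.46) and HSFB3 (-2.18). HSFA8 was no longer called without replicate 3 at 39 °C (-0.37, adjusted p = 0.0854), nor HSFB3 without replicate 2 at 39 °C (-1.62, adjusted p = 0.0666). HSFA9, a factor of seed development, had 0 counts in all 6 libraries, and HSFA6A had 1 count at 23 °C and 0 at 39 °C.

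**Figure D1:**
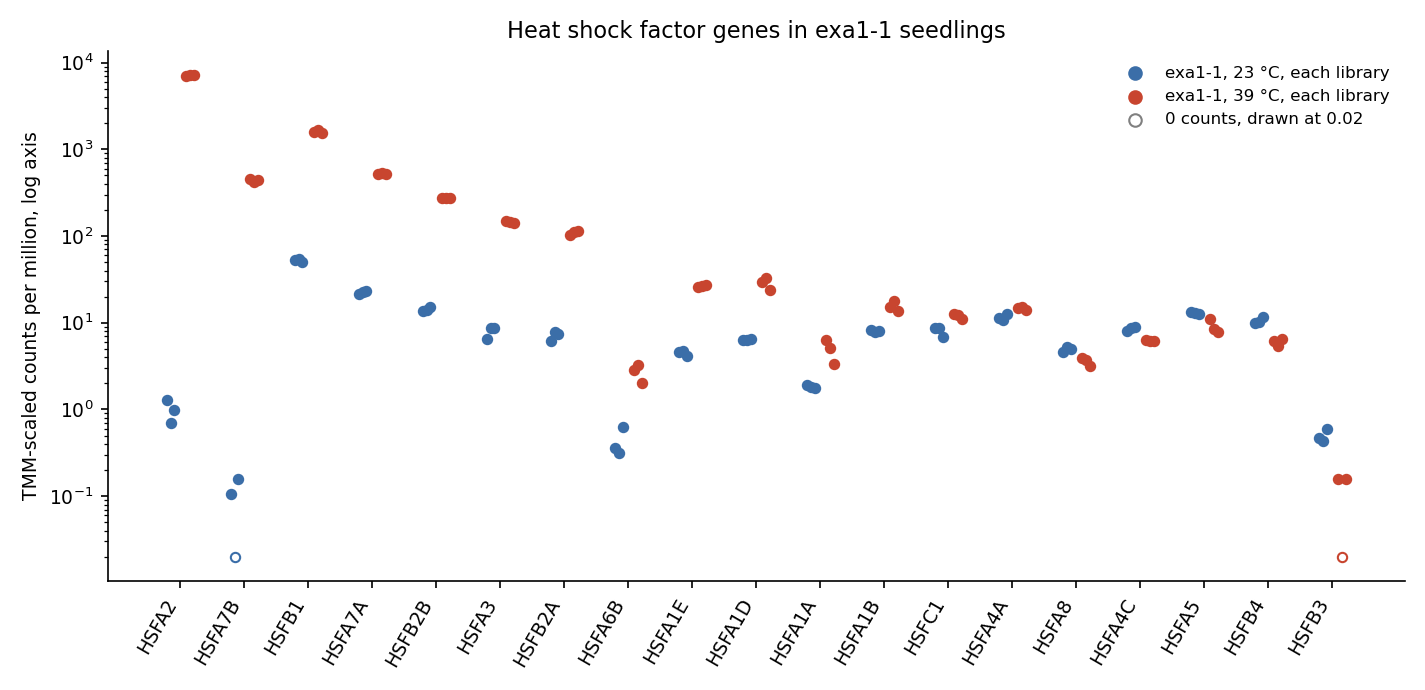
Level of the 19 tested heat shock factor genes in each exa1-1 library at 23 °C (blue) and 39 °C (red), as TMM-scaled CPM on a log axis, with libraries at 0 counts drawn as open circles at the foot. HSFA2 lies at a mean of 0.991 CPM at 23 °C and 7173 CPM at 39 °C, while the genes at the right lie lower at 39 °C.

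Other regulators of the heat response rose with them. Of 12 such genes 11 were called higher and 0 lower with TMM (background 38.0% and 41.4%), with a median of 4.00, and with library totals 9 were higher and 2 lower. The transcriptional co-activator MBF1C was at 6.01, 4.04 and 4.93 CPM at 23 °C and 2538, 2469 and 2562 CPM at 39 °C. It showed the largest change of the group, with a log2 fold change of 8.97 ± 0.0783 (adjusted p = 1.06e-30). DREB2A, which induces HSFA3, rose by 6.65, and its relatives DREB2C and DREB2B by 5.20 and 4.50. The membrane-bound sensors of unfolded protein BZIP28 and BZIP60 rose by 3.51 and 1.49. PIF4, which drives growth at warm temperature, rose by 1.94. HSBP, a repressor that binds heat shock factors, and NF-YC10, a partner of DREB2A, flipped with the scaling, from 0.57 to -0.39 and from 0.75 to -0.21. JUB1, a NAC factor, was at 0.647 and 0.724 CPM on average and was not called (adjusted p = 0.745). ROF1, an immunophilin counted here and among the co-chaperones, rose by 5.68.

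The small heat shock protein genes went from a trace to a large part of all counts. HSP17.4-CI, whose promoter is printed above, was at 1.39, 1.18 and 0.979 CPM at 23 °C and at 14701, 14668 and 15052 CPM at 39 °C. Its log2 fold change was 13.60 ± 0.0613 (adjusted p = 4.88e-75). HSP17.6C-CI of the same cytosolic class changed by 14.49 ± 0.0634, the largest value in the family, from 0.465, 0.706 and 0.666 CPM to 14283, 13764 and 14204 CPM. The 2 temperatures did not overlap in either gene. The class I genes HSP17.8-CI, HSP18.2, HSP17.6A-CI and HSP17.6B-CI rose by 13.27, 13.06, 12.97 and 12.17. The class II genes HSP17.6-CII and HSP17.7-CII rose by 13.22 and 12.83, and HSP17.4-CIII by 9.96. Without replicate 2 at 23 °C the value of HSP17.6-CII was 14.07, and without replicate 3 at 23 °C that of HSP17.7-CII was 13.54. The peroxisomal HSP15.7 rose by 11.04. HSP18.5 had the highest starting level of the genes that rose, a mean of 30.4 CPM, and rose by 6.72.

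Together 11 of the 13 cytosolic and peroxisomal genes were higher, 1 was lower and 1 was not called with either scaling, and the median log2 fold change was 12.83 with TMM and 11.88 with totals. The gene that fell was HSP15.4 (12.9, 12.6 and 11.6 CPM at 23 °C, 5.16, 6.32 and 6.54 CPM at 39 °C, log2 fold change -1.04 ± 0.128). HSP14.7, at 0.574 and 0.909 CPM on average, was not called. The 5 organellar genes all rose, with a median of 13.28. The background for both groups was 38.0% higher and 41.4% lower with TMM. HSP22.0-ER, of the endoplasmic reticulum, was at 0.214, 0.706 and 0.47 CPM at 23 °C and 8336, 8865 and 8740 CPM at 39 °C. The chloroplast protein gene HSP21 rose by 13.43, and the mitochondrial HSP23.6, HSP23.5 and HSP26.5 rose by 13.23, 9.30 and 13.28 (14.19 for HSP26.5 without replicate 3 at 23 °C). Members of these classes are close in sequence, and the settings for reads that match several genes are not given in the sources used here, so the division of counts within a class is uncertain.

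Of the HSP70 genes 14 of 15 could be tested and all 14 were higher with TMM (median 3.57, background 38.0%). Of these, 13 were also higher with library totals (background 13.8%). The inducible cytosolic genes HSP70B and HSP70-4 rose by 10.42 ± 0.0528 and 9.92 ± 0.0475. HSC70-1, the main constitutive cytosolic form, was already at 1939, 1946 and 2069 CPM at 23 °C and reached 13255, 12860 and 13043 CPM, a log2 fold change of 2.72 ± 0.0358. HSP70-4 came from 14.2 CPM on average and reached 13737 CPM. The mitochondrial forms differed from each other, with a rise of 7.03 for mtHSC70-2 and 1.81 for mtHSC70-1. The chloroplast forms cpHSC70-1 and cpHSC70-2 rose by 2.60 and 2.31. HSP70T-2, a truncated family member, went from 1.36, 1.8 and 2.08 CPM to 2450, 2424 and 2493 CPM. HSP70-14 rose by 1.03 with TMM and was not called with library totals (0.07).

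HSP90.1, the inducible cytosolic HSP90, went from 11.4, 11.5 and 12.1 CPM to 12582, 13039 and 13150 CPM, a log2 fold change of 10.11 ± 0.0496 (adjusted p = 1.53e-73). All 7 HSP90 genes were higher with TMM (median 2.99, background 38.0%) and 6 with totals (background 13.8%). The constitutive cytosolic genes HSP90.2 and HSP90.3 rose by 5.81 and 4.82, and HSP90.4 by 0.90 with TMM but -0.06 and not called with totals, although these 3 share much of their sequence and their reads may be divided wrongly. Of the organellar forms, HSP90.5 of the chloroplast rose by 2.31, HSP90.6 of mitochondria by 2.99 and HSP90.7 of the endoplasmic reticulum by 2.42. HSP101, the cytosolic disaggregase needed for acquired thermotolerance, was at 10.2, 9.53 and 11.7 CPM at 23 °C and 12167, 12679 and 12271 CPM at 39 °C. Its log2 fold change was 10.20 ± 0.0567 (adjusted p = 8.27e-62), and its promoter window is the one printed above without a GAANNTTC. Its chloroplast and mitochondrial relatives CLPB3 and CLPB4 rose by 6.92 and 5.45, and HSA32, which prolongs the memory of a heat treatment, by 5.79.

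Of 13 co-chaperone genes 12 were higher and 1 lower with TMM (background 38.0% and 41.4%). ROF2, an immunophilin that binds HSP90, went from 2.82, 2.35 and 2.94 CPM to 2545, 2613 and 2484 CPM (log2 fold change 9.87 ± 0.0629). HOP3, which bridges HSP70 and HSP90, rose by 8.76, and HOP2 and HOP1 by 4.86 and 1.29. FES1A, which protects cytosolic HSP70 from degradation, rose by 8.47, and BAG6 by 8.02. The HSP40 genes J3 and J2 rose by 3.74 and 3.47. BAG7 flipped with the scaling (0.78 with TMM, -0.18 with totals). P23-2, a co-chaperone of HSP90, was the member that fell with either scaling (-1.19 with TMM), while P23-1 rose by 1.23.

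Shares of all counts are values scaled by library totals, without the TMM factors. By this measure the 44 genes of the small heat shock protein, HSP70, HSP90 and HSP100 lists took 0.473%, 0.471% and 0.487% of the exa1-1 libraries at 23 °C. At 39 °C they took 16.1%, 16.2% and 16.3%. The cytosolic small heat shock proteins went from 0.00807% ± 0.000232 (SD, n = 3) to 7.31% ± 0.0495, HSP70 from 0.375% ± 0.00902 to 4.22% ± 0.0266 and HSP90 from 0.0867% ± 0.000545 to 1.91% ± 0.0159. The HSP100 list went from 0.00666% to 1.1%. In each of these groups the 3 libraries at 39 °C lay above the 3 at 23 °C, where the smallest two-sided p of an exact permutation test is 0.1. At 39 °C the gene with the most counts was HSP17.8-CI with 1.64% of the library, and of the 10 leading genes 7 encode chaperones (HSP17.8-CI, HSP17.4-CI, HSP17.6C-CI, HSP70-4, HSC70-1, HSP90.1 and HSP101) and 3 photosynthetic proteins (LHCB1.3, RBCS1A and LHCB1.5). These shares are not corrected for transcript length.

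**Figure D2:**
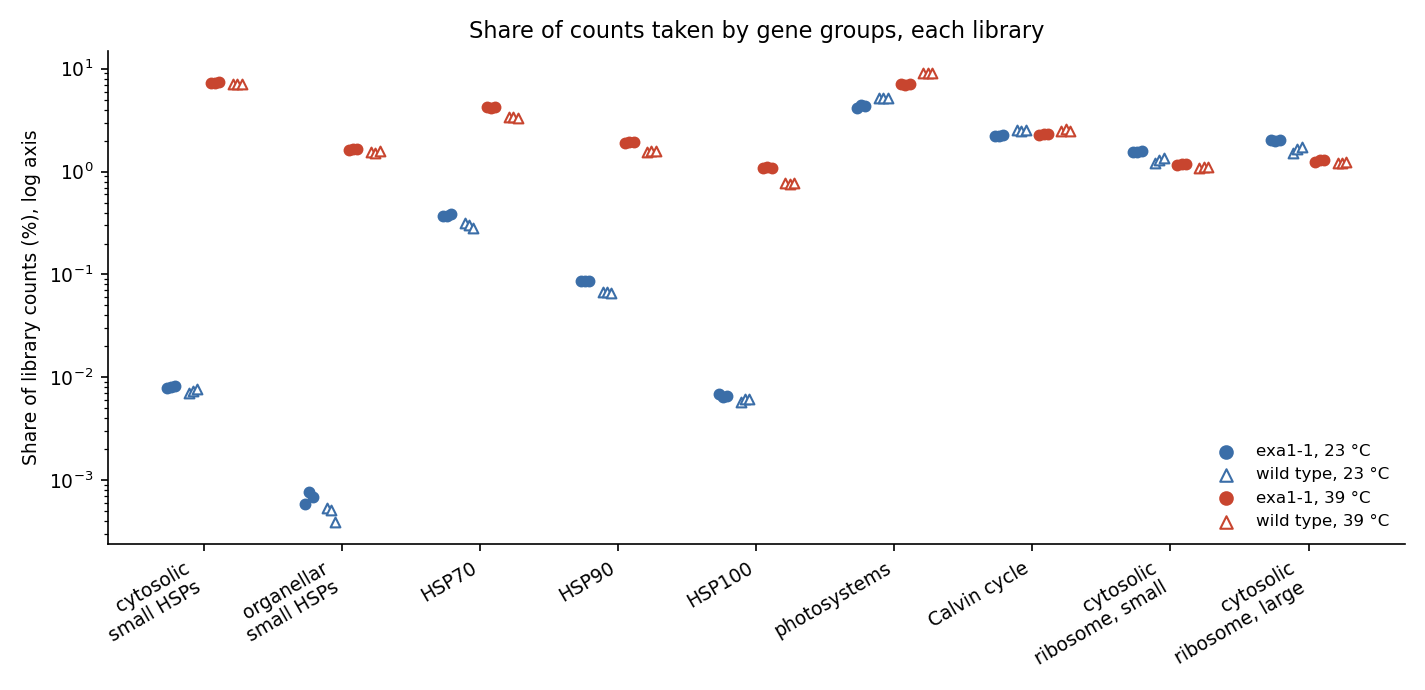
Share of the library's counts (%), log axis, taken by 9 gene groups in each library of exa1-1 (filled circles) and wild type (open triangles) at 23 °C (blue) and 39 °C (red). In exa1-1 HSP70 genes go from 0.375% to 4.22% and cytosolic small heat shock protein genes from 0.00807% to 7.31%, photosystem genes go from 4.31% to 7.09%, and the cytosolic ribosomal protein genes lie lower at 39 °C.

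In the endoplasmic reticulum the folding genes rose less evenly. Of 21 genes 17 were higher and 3 lower with TMM (median 1.74, background 38.0% and 41.4%), and with library totals 13 were higher and 7 lower (median 0.78). HSP90.7, BZIP28 and BZIP60 are among them and were described above. ERDJ3A, an HSP40 of this compartment, went from 1, 1.37 and 1.02 CPM to 409, 422 and 423 CPM (log2 fold change 8.53 ± 0.0756), the largest change of the list. The HSP70 genes BIP1 and BIP2 rose by 4.38 and 4.39, with the reservation that they are nearly identical. BIP3, the form tied to unfolded protein stress, had 2 counts at 23 °C and 19 at 39 °C over 3 libraries each, a ratio of 19.4 with a 95% counting interval of 4.69 to 172. P58IPK and CNX1, an HSP40 and a lectin chaperone, rose by 3.54 and 3.39. The calreticulin CRT1A flipped with the scaling (0.76 and -0.19), and CRT3 was not called with TMM (0.07) but lower with totals (-0.88). The protein disulfide isomerase PDIL1-1 (-0.37), the stress sensor IRE1B (-0.71) and the factor NAC103 (-1.52) fell.

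Genes for protective sugars and water stress rose as well, against a background of 38.0% higher and 41.4% lower with TMM, and 13.8% and 74.9% with totals. GOLS1, a galactinol synthase that makes the precursor of raffinose and a known heat shock factor target, went from 8.01, 8.83 and 9.56 CPM to 3092, 3073 and 3088 CPM (log2 fold change 8.46 ± 0.0518). GOLS2 and GOLS4 rose by 8.83 (9.71 without replicate 2 at 23 °C) and 2.93, and MIPS2, which makes myo-inositol, by 6.22. Of the 7 tested genes of this list 6 were higher and 1 lower with TMM (median 2.93), and 5 higher and 2 lower with totals. Of 23 tested abscisic acid and osmotic response genes 21 were higher and 0 lower with TMM (median 2.72), and 16 were higher and 6 lower with totals. KIN1, COR15B, RD29A and COR15A, which mark cold and drought responses, rose by 5.81, 5.32, 4.91 and 4.67. HAB2, a phosphatase of abscisic acid signalling, and RD22 were not called with TMM (0.00 and -0.01) and were lower with totals (-0.96 and -0.96).

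Antioxidant enzymes split. APX2, the heat-inducible cytosolic ascorbate peroxidase, went from 0.0715, 0.0785 and 0.0392 CPM to 270, 280 and 286 CPM (log2 fold change 11.97 ± 0.116). The copper/zinc superoxide dismutases CSD1 and CSD2, both known targets of the microRNA miR398, fell by the largest amounts in the list, with log2 fold changes of -3.13 ± 0.121 and -3.48 ± 0.135. Of 12 genes 10 were higher and 2 lower with TMM (median 1.25, background 38.0% and 41.4%). With totals 6 were higher and 4 lower (background 13.8% and 74.9%). In the list of alternative respiration 5 of 6 genes rose with either scaling, among them NAC013, a factor of mitochondrial stress (4.67), the alternative oxidase AOX1A (3.42) and UPOX (3.08), and OM66 was not called with TMM (0.27) but lower with totals (-0.68).

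Nuclear genes of the photosystems and their antennae rose together. All 34 were higher with TMM (median 2.11, background 38.0%). With library totals 33 were higher and 1 lower (median 1.16, background 13.8% and 74.9%). LHCB1.1, an antenna protein of photosystem II, rose most, from 21.5, 19.3 and 22.8 CPM to 1169, 1118 and 1149 CPM (log2 fold change 5.75 ± 0.0486), although its near-identical neighbours make the division of reads uncertain. LHCB2.1 and LHCB2.2 rose by 4.55 and 3.25, and PSAO of photosystem I by 2.86. The exception with totals was LHCB1.3, named after its values were seen, which flipped from 0.75 to -0.20. The share of counts of the 34 genes was 4.18%, 4.40% and 4.35% at 23 °C and 7.17%, 7.00% and 7.11% at 39 °C. The 13 Calvin cycle genes were higher in 12 cases with TMM (median 1.00) but 6 were higher and 6 lower with totals (median 0.04), and their share of counts was 2.25% ± 0.0353 at 23 °C and 2.31% ± 0.0194 at 39 °C. Within that list RBCS3B, a Rubisco small subunit, and RCA, Rubisco activase, rose by 2.55 and 2.26, and RBCS1B was not called with TMM (0.14) but lower with totals (-0.82).

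Genes for making and degrading proteins showed mostly small changes, and in most of them the direction depended on the scaling. The background for the counts that follow was 38.0% higher and 41.4% lower with TMM, and 13.8% and 74.9% with totals. Of 14 tested initiation and poly(A)-binding factors 11 were higher and 1 lower with TMM (median 0.23), against 3 higher and 10 lower with totals (median -0.73). EIFISO4G2 rose most, by 2.85 with TMM and 1.89 with totals, and the cap-binding genes EIF4E and EIFISO4E rose by 1.64 and 1.34. EIF4G, the scaffold of the cap-binding complex, was not called with TMM (0.04) but lower with totals (-0.91). Of 66 small-subunit cytosolic ribosomal protein genes 50 were higher and 7 lower with TMM (median 0.44), but 6 higher and 54 lower with totals. Of 82 large-subunit genes 50 were higher and 14 lower with TMM (median 0.21), but 0 higher and 79 lower with totals. Their share of counts went from 2.01% ± 0.0124 to 1.28% ± 0.0196 for the large subunit and from 1.56% ± 0.0164 to 1.18% ± 0.00854 for the small one. Of 13 autophagy genes 9 were higher and 2 lower with TMM (1 lower without replicate 2 at 39 °C), against 4 and 7 with totals, and ATG18A rose most, by 3.44.

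Serine/arginine-rich splicing factors moved in a similar way, apart from SR45A, SR30 and SCL33. SR45A went from 55.3, 55.3 and 56.4 CPM to 1450, 1398 and 1422 CPM, a log2 fold change of 4.68 ± 0.0496 with TMM and 3.72 with totals. SR30 rose by 3.35 and 2.40 on the same scales, and SCL33 by 1.63 and 0.67. Of 19 genes 15 were higher and 3 lower with TMM (median 0.60, background 38.0% and 41.4%). With totals 3 were higher and 14 lower (median -0.35, background 13.8% and 74.9%), shares near those of all genes. The 3 that were higher with totals are the 3 named here.

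OXS3, a nuclear protein of stress tolerance, showed the largest fall among the genes with a symbol and at least 5 CPM on average, from 35, 31.5 and 33.1 CPM to 0.235, 0.617 and 0.234 CPM (log2 fold change -6.49 ± 0.184, and -7.11 without replicate 2 at 39 °C). The other genes with large falls were the trans-acting siRNA precursor TAS3 (-5.89), UCC2 (-5.88), the auxin-related factor NAC1 (-5.86), the Aux/IAA repressor IAA3 (-5.57), the BTB-domain genes BT2 (-5.37) and BT5 (-5.13), the factor SPL2 (-5.16), the expansin EXPA1 (-5.02), the bile acid transporter homologue BAT5 (-4.99), PME1 (-4.87) and the microRNA locus ath-MIR822 (-5.12). NAC1, IAA3 and EXPA1 are examples among these 12 genes with known roles in auxin response or cell expansion, and the share of such genes was not tested.

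Of 15 tested auxin genes 8 fell and 3 rose with TMM (median -1.44), against a background of 41.4% lower and 38.0% higher, and 13 fell and 0 rose with totals, where 74.9% of all genes fell. Besides IAA3 these included IAA4 (-4.52) and the auxin efflux carrier PIN3 (-3.73). PIN3 was at 61.2, 53.9 and 56.4 CPM at 23 °C and 3.6, 5.24 and 4.05 CPM at 39 °C, with no overlap. Of 13 cell wall genes 9 fell and 3 rose with TMM (median -0.67), and all 13 fell with totals. EXPA8, XTH22 and EXPA5, which loosen or remodel the wall, fell by 3.37, 2.60 and 2.13 on the log2 scale. Genes of DNA replication and mitosis were split, with 5 higher, 5 lower and 8 not called with TMM (median -0.03), and 1 higher and 16 lower with totals. Without replicate 1 at 23 °C 3 were higher with TMM. Within that list the replication gene PCNA1 rose (1.33), while the mitotic cyclin genes CYCB1;3, CYCB1;2 and CYCB1;1 fell by 1.08, 1.07 and 0.84.

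Defence and hormone genes were mixed. Of 23 tested immunity genes 16 were lower and 4 higher with TMM (median -1.21), against a background of 41.4% and 38.0%, and 18 lower and 3 higher with totals, where 74.9% of all genes were lower and 13.8% higher. FLS2, the receptor for bacterial flagellin, went from 14.2 to 18.1 CPM at 23 °C to 1.64, 1.39 and 1.48 CPM at 39 °C (log2 fold change -3.47 ± 0.174). NHL10, PR2 and RBOHD, the oxidase that makes the oxidative burst, fell by 2.63, 1.95 and 1.94. Of 17 tested jasmonate genes 8 rose and 5 fell with TMM, with LOX2, AOC1 and AOS, which make jasmonate, higher by 2.09, 1.88 and 1.77 and the repressor gene JAZ6 lower (-2.09). Of 10 ethylene genes 4 rose and 4 fell with TMM, shares near those of all genes (38.0% and 41.4%, which also stand beside the jasmonate count). The receptor gene ETR2 rose by 1.97, and the response factor ERF5 fell by 2.57. With totals the counts were 5 higher and 9 lower for jasmonate and 1 higher and 7 lower for ethylene.

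Clock genes and water channels held both rises and members that were not called. Beside every count of called genes here stand the shares of all genes. These were 38.0% higher and 41.4% lower with TMM, and 13.8% and 74.9% with totals. PRR9, CCA1, GI and PRR7 rose by 6.85, 4.94, 3.57 and 3.20, and 6 of 16 clock genes, among them LHY (-0.20) and ELF4 (-0.01), were not called with TMM. In all 8 clock genes were higher and 2 lower with TMM, and 5 higher and 8 lower with totals. The 2 that fell, named after their values were seen, were TOC1 (-1.78) and ELF3 (-0.68). PRR9 had 4 counts over the 3 libraries at 23 °C, all of them in replicate 1, and its log2 fold change without that library was 9.93, a fitted value against 0 counts that depends on the prior count. CCA1 was at 0.25, 0.196 and 0.509 CPM at 23 °C and 10.7, 9.02 and 10 CPM at 39 °C. Among 18 aquaporin genes 10 rose and 4 fell with TMM, against 4 and 13 with totals. PIP2;3 of the plasma membrane rose by 4.84, and TIP1;2 of the vacuole fell from 2583, 2615 and 2666 CPM to 630, 631 and 639 CPM (log2 fold change -2.05 ± 0.0335). Markers of root tissue fell in 6 of 9 cases and rose in 2 with TMM (median -1.70; 1 rose without replicate 1 at 23 °C or replicate 2 at 39 °C), with PYK10, the main enzyme of root endoplasmic reticulum bodies, at 1520, 1476 and 1490 CPM and 391, 400 and 384 CPM. The summed level of the 9 root markers was 1562 to 1603 CPM at 23 °C and 426 to 445 CPM at 39 °C, and that of 9 shoot markers was 9279 to 9712 CPM and 14740 to 15457 CPM, with no marker at 0. Scaled by library totals the root sum was 2150 to 2233 CPM and 301 to 317 CPM, and the shoot sum 12776 to 13324 CPM and 10516 to 10934 CPM, so the direction of the shoot sum flipped. PYK10 made up most of the root sum. RBCS1A, with 1.3% of counts at 23 °C and 0.984% at 39 °C on average, made up most of the shoot sum. The sums thus mostly give the level of these genes. The median of the shoot list was -0.35 with TMM and -1.31 with totals. Of the shoot markers 3 rose and 3 fell with TMM (5 fell without replicate 3 at 39 °C), and 2 rose and 7 fell with totals. The 3 that rose with TMM (LHCB1.1, CCA1 and RBCS1A) also stand in other lists. RBCS1A, named like LHCB1.3 after its values were seen, flipped from 0.56 with TMM to -0.40 with totals. The part of root and shoot tissue in the other results was not tested.

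**Figure D3:**
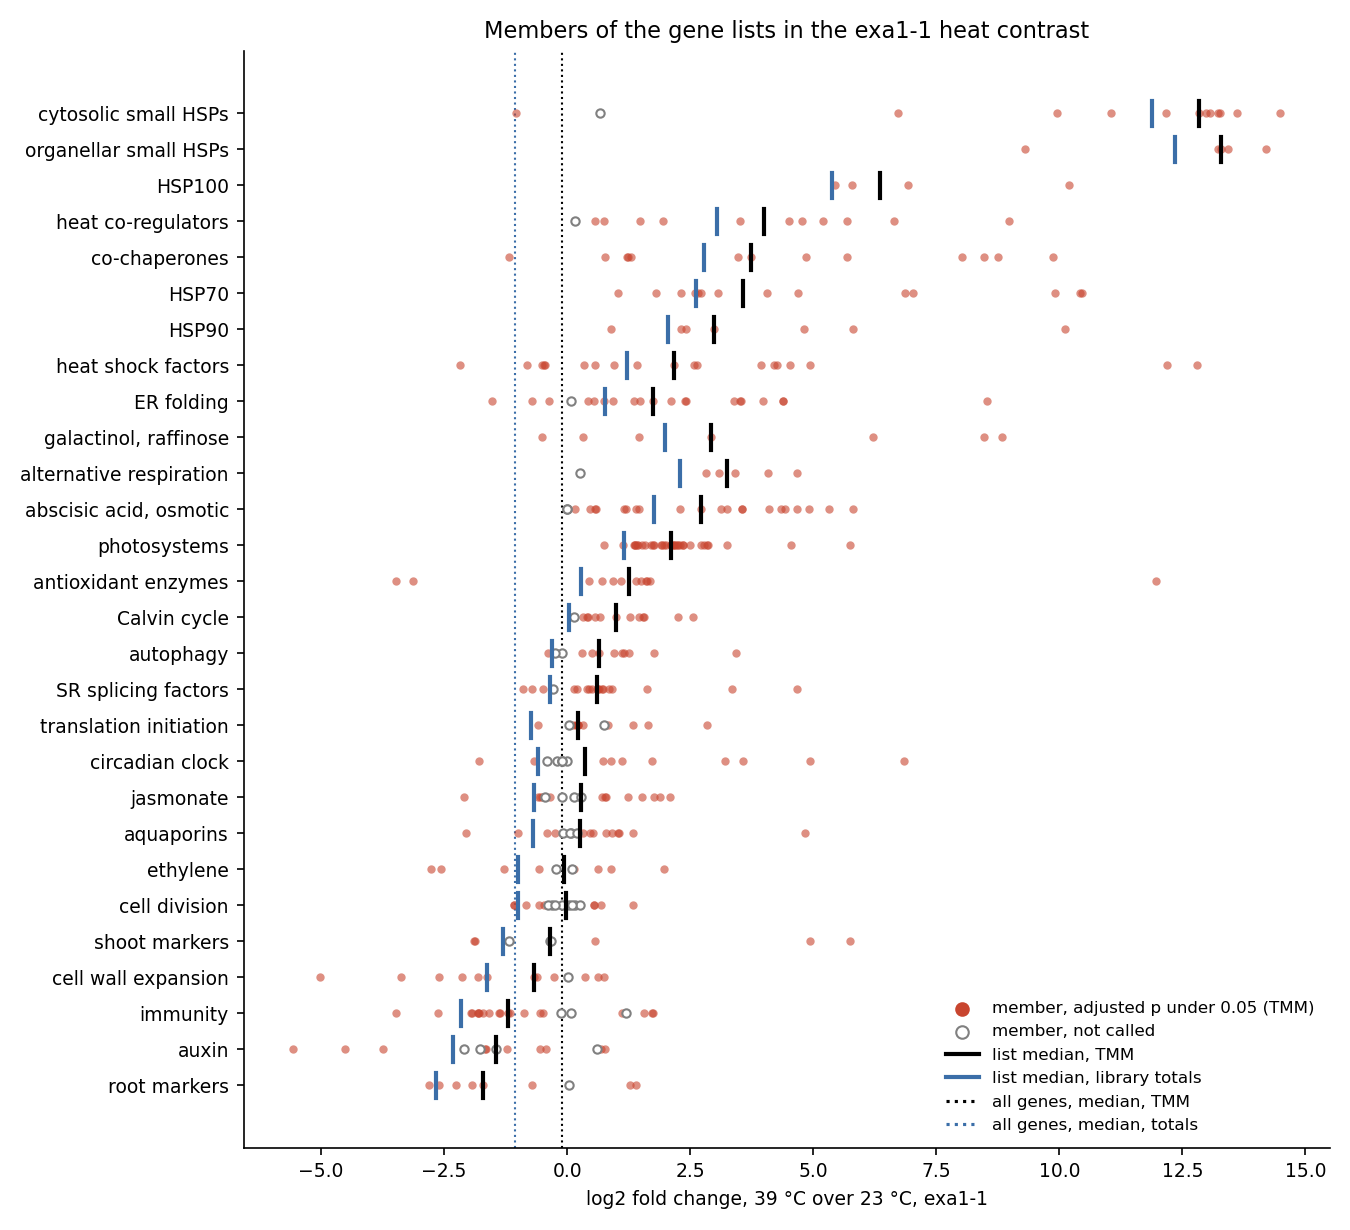
log2 fold change (39 °C over 23 °C, exa1-1) of each tested member of 28 gene lists, with filled points called and open points not called with TMM. Black and blue bars give the list medians with TMM and with library totals, and dotted lines the medians of all genes (-0.10 and -1.05). Chaperone lists lie far to the right of both lines, whereas root marker, auxin and immunity medians lie to the left of them.

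Genes with the strongest rises were shorter and more often had a single exon, as a description of classes formed on the contrast. Of 131 protein-coding genes higher by at least 6 on the log2 scale, 29.8% had a single exon and the median coding length was 723 bases, and of 414 genes higher by 3 to 6 these values were 21.0% and 1050 bases. Among all 20113 tested protein-coding genes 14.0% had a single exon and the median was 1155 bases. The relation was not one way, since 23.3% of 5127 genes lower by at least 1 also had a single exon, against 6.29% of 4339 genes higher by less than 1. Coding lengths and exons come from RefSeq's TAIR10.1 annotation.

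The heat responses of exa1-1 and wild type, which share no library, were much alike across genes. In wild type 7999 genes were higher (38.2%) and 8840 lower (42.3%) with TMM, and 7180 genes were higher and 7702 lower in both genotypes. Across the 20923 genes the log2 fold changes of the genotypes had a Pearson correlation of 0.938, given as a description since genes are not independent. The difference between the responses, tested as the heat by genotype interaction, was called for 3533 genes (16.9%). It was positive, meaning more rise or less fall in exa1-1, for 1838 (8.78%) and negative for 1695 (8.10%), that is 52.0% positive. With library totals 1387 were positive (6.63%) and 2255 negative (10.8%), that is 38.1% positive, so the balance of signs depends on the scaling. No gene called with both changed sign. That could hardly be otherwise, since the scaling moved the interactions little (median 0.0 with TMM and -0.05 with totals). A difference of at least 2-fold was reached by 221 positive and 136 negative genes. Of the 3533 genes, 1566 changed more in exa1-1 than in wild type in the same direction, 1375 changed less, and 592 had opposite signs. These are signs of the fitted changes, whether or not the change was called in either genotype. Among all tested genes 76 were called higher in exa1-1 and lower in wild type, and 63 the reverse.

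**Figure D4:**
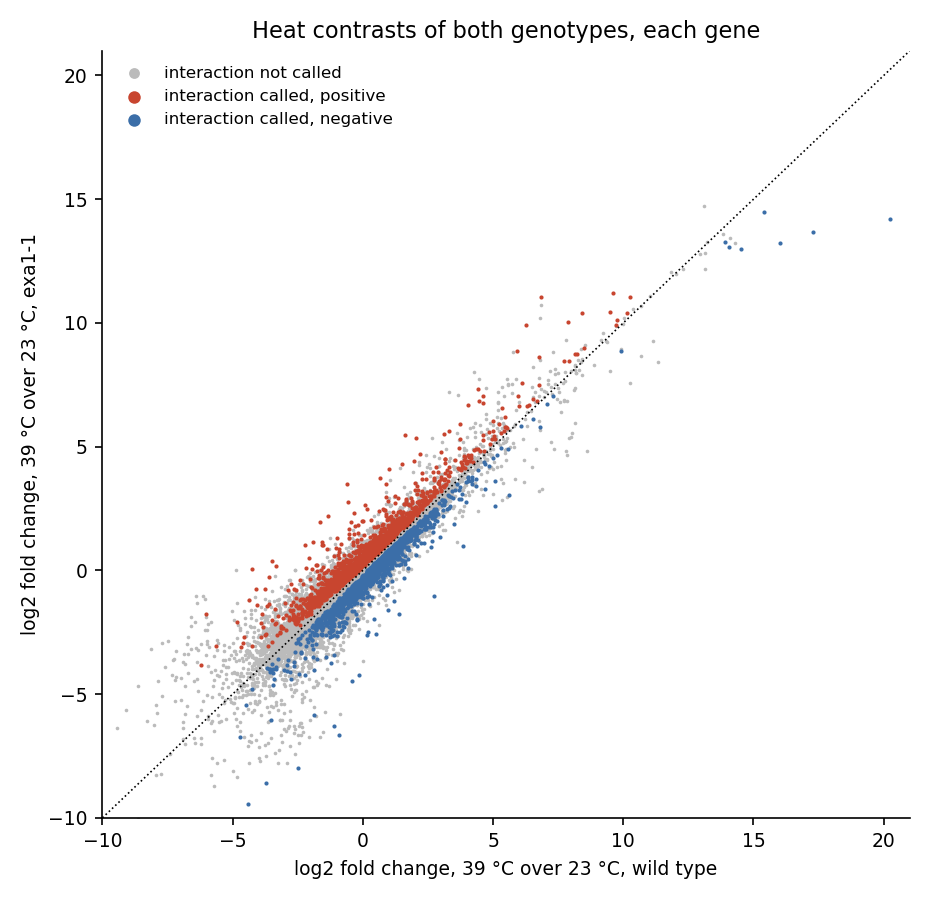
log2 fold change at 39 °C over 23 °C of each of the 20923 genes in exa1-1 (vertical axis) against wild type (horizontal axis), with genes of a called positive (red) or negative (blue) interaction. Most points lie along the dotted line of equal change (r = 0.938).

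Among the chaperones the share of counts at 39 °C was 16.2% ± 0.0654 in exa1-1 and 14.4% ± 0.0540 in wild type, with no overlap between the 3 libraries of each. The chaperone share at 23 °C was also higher in exa1-1, at 0.477% ± 0.00868 against 0.382% ± 0.0177. HSP101 was at 8223, 8095 and 8339 CPM in wild type at 39 °C, below each exa1-1 library, and the difference between genotypes was 0.59 (adjusted p = 7.87e-18). A difference of 0.41 was present at 23 °C too, and the interaction of HSP101 was 0.18 and not called (adjusted p = 0.123). HSP90.1 was not called different at 23 °C (0.04, adjusted p = 0.663) and was higher in exa1-1 at 39 °C, with an interaction of 0.37 (adjusted p = 3.51e-05). HSP70T-2 had an interaction of 0.98, HSP70-16 of 0.85 and FES1A of 0.73, all called. The heat shock factors HSFB1 (0.50), HSFA7A (0.37) and HSFA4A (0.44) were the 3 of 19 with a called interaction with TMM. That share is near the 16.9% of all genes. With library totals 2 factors were called positive and 1 negative. HSFA2 was not called with TMM (-0.13, adjusted p = 0.828). The genotype difference of HSFA2 at 39 °C was 0.19 (adjusted p = 0.0115).

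By list, the interaction was called positive in 8 and negative in 3 of 14 HSP70 genes, positive in 3 of 4 HSP100 genes and positive in 4 of 7 galactinol genes, against 8.78% positive and 8.10% negative over all genes. It was positive in 2 and negative in 9 of 21 folding genes of the endoplasmic reticulum, and negative in 6 and positive in 1 of 13 cytosolic small heat shock protein genes. Among the latter, HSP17.6A-CI was at 1.25, 1.1 and 0.862 CPM in exa1-1 and 0.478, 0.283 and 0.237 CPM in wild type at 23 °C, and differed by 0.12 on the log2 scale at 39 °C. HSP18.2 had a genotype difference of 1.13 at 23 °C and 0.12 at 39 °C. Of the large-subunit ribosomal protein genes 37 of 82 had a called negative interaction and 0 a positive one, and of the small-subunit genes 17 of 66 and 1. The large-subunit share of counts at 23 °C was 2.01%, 2.00% and 2.02% in exa1-1 but 1.51%, 1.64% and 1.72% in wild type, and at 39 °C it was 1.25%, 1.29% and 1.29% against 1.22%, 1.21% and 1.25%. The wild-type libraries at 23 °C thus differed among themselves more than those of the other groups, and the part of that spread in these interactions was not tested. Over all genes 1695 interactions were negative with all 12 libraries. Without wild-type replicate 1, 2 or 3 at 23 °C the numbers were 1885, 1656 and 2241.

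GSTU25, a glutathione S-transferase, rose in exa1-1 by 1.99, against -0.00 in wild type (adjusted p = 0.99). It was at 6.04, 7.49 and 5.95 CPM at 23 °C and 25.7, 26.6 and 24.9 CPM at 39 °C in exa1-1, and at 6.17, 6.18 and 7.67 CPM and 5.79, 8.01 and 6.2 CPM in wild type. The interaction was 1.99 ± 0.186 (adjusted p = 7.22e-12), and only the exa1-1 libraries at 39 °C stood apart. XPL1, which encodes an enzyme of phosphocholine synthesis, fell further in exa1-1. It was at 26.2, 25.2 and 27.1 CPM and 2.74, 2.16 and 2.41 CPM in exa1-1, and at 32.7, 36 and 33.5 CPM and 16.5, 14.9 and 15.8 CPM in wild type, with an interaction of -2.31 ± 0.165 (adjusted p = 1.42e-15). Likewise BEH1, of the brassinosteroid-responsive BZR family, had an interaction of -1.63 ± 0.41, and CIA2, a factor for chloroplast protein import and ribosome genes, of -1.48 ± 0.173. Their genotype differences were 0.05 and 0.31 at 23 °C and -1.59 and -1.16 at 39 °C. PRP3, a cell wall protein of root hairs, fell less in exa1-1, from 20.2, 19.5 and 17.9 CPM to 7.36, 6.17 and 6.07 CPM, than in wild type, from 13.1, 11.8 and 15.8 CPM to 1.32, 1.26 and 1.36 CPM (interaction 1.81 ± 0.241).

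In other genes with a large interaction the genotypes differed more at 23 °C than at 39 °C. ELI3-2, an alcohol dehydrogenase of the defence response, was at 0, 0.275 and 0.431 CPM in exa1-1 and 1.39, 1.98 and 2.06 CPM in wild type at 23 °C, and at 23.3, 26.2 and 23 CPM and 29.8, 31 and 28.9 CPM at 39 °C. Its interaction was 2.65 ± 0.375 (adjusted p = 8.26e-07), and 2.01 and 3.39 without exa1-1 replicate 1 or 3 at 23 °C. The zinc finger gene PMZ behaved alike, with a genotype difference of -2.48 at 23 °C and -0.31 at 39 °C and an interaction of 2.17 ± 0.313. AOX1D had a genotype difference of -4.95 at 23 °C and -1.85 at 39 °C and an interaction of 3.10 ± 0.636. Other genes changed order. The stress factor ZAT12 was lower in exa1-1 at 23 °C (-1.16) and higher at 39 °C (0.61), with an interaction of 1.77 ± 0.194. CSD2 was higher in exa1-1 at 23 °C (0.98) and lower at 39 °C (-0.60), with an interaction of -1.58 ± 0.21.

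Some of the largest fitted interactions rest on counts at or near 0 at 23 °C. SAP10, a zinc finger protein, had 0 counts in exa1-1 and 8 in wild type at 23 °C, and 523 and 528 counts at 39 °C. In exa1-1 it was at least 357-fold higher at 39 °C, taking 3 counts over the group as the limit for 0. Its fitted interaction of 4.18 (adjusted p = 0.0152) depends on the prior count of the fit, and without wild-type replicate 3 at 23 °C it was 3.75 (adjusted p = 0.0509). RLP21, which encodes a receptor-like protein, had 0 counts in exa1-1 at 23 °C and was at least 290-fold higher at 39 °C, and its interaction was not called (adjusted p = 0.0521). HSP22.0-ER had 36 counts in exa1-1 and 0 in wild type at 23 °C, and 333734 and 324703 counts at 39 °C. Its fitted interaction of -6.06 (adjusted p = 2.55e-07) rests on those counts at 23 °C, and at 39 °C the genotypes differed by 0.10. HSP23.6 of mitochondria was at 0.894, 1.14 and 0.705 CPM in exa1-1 and 0.159, 0.121 and 0.0396 CPM in wild type at 23 °C, and its interaction was -2.81 ± 0.308.

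**Figure D5:**
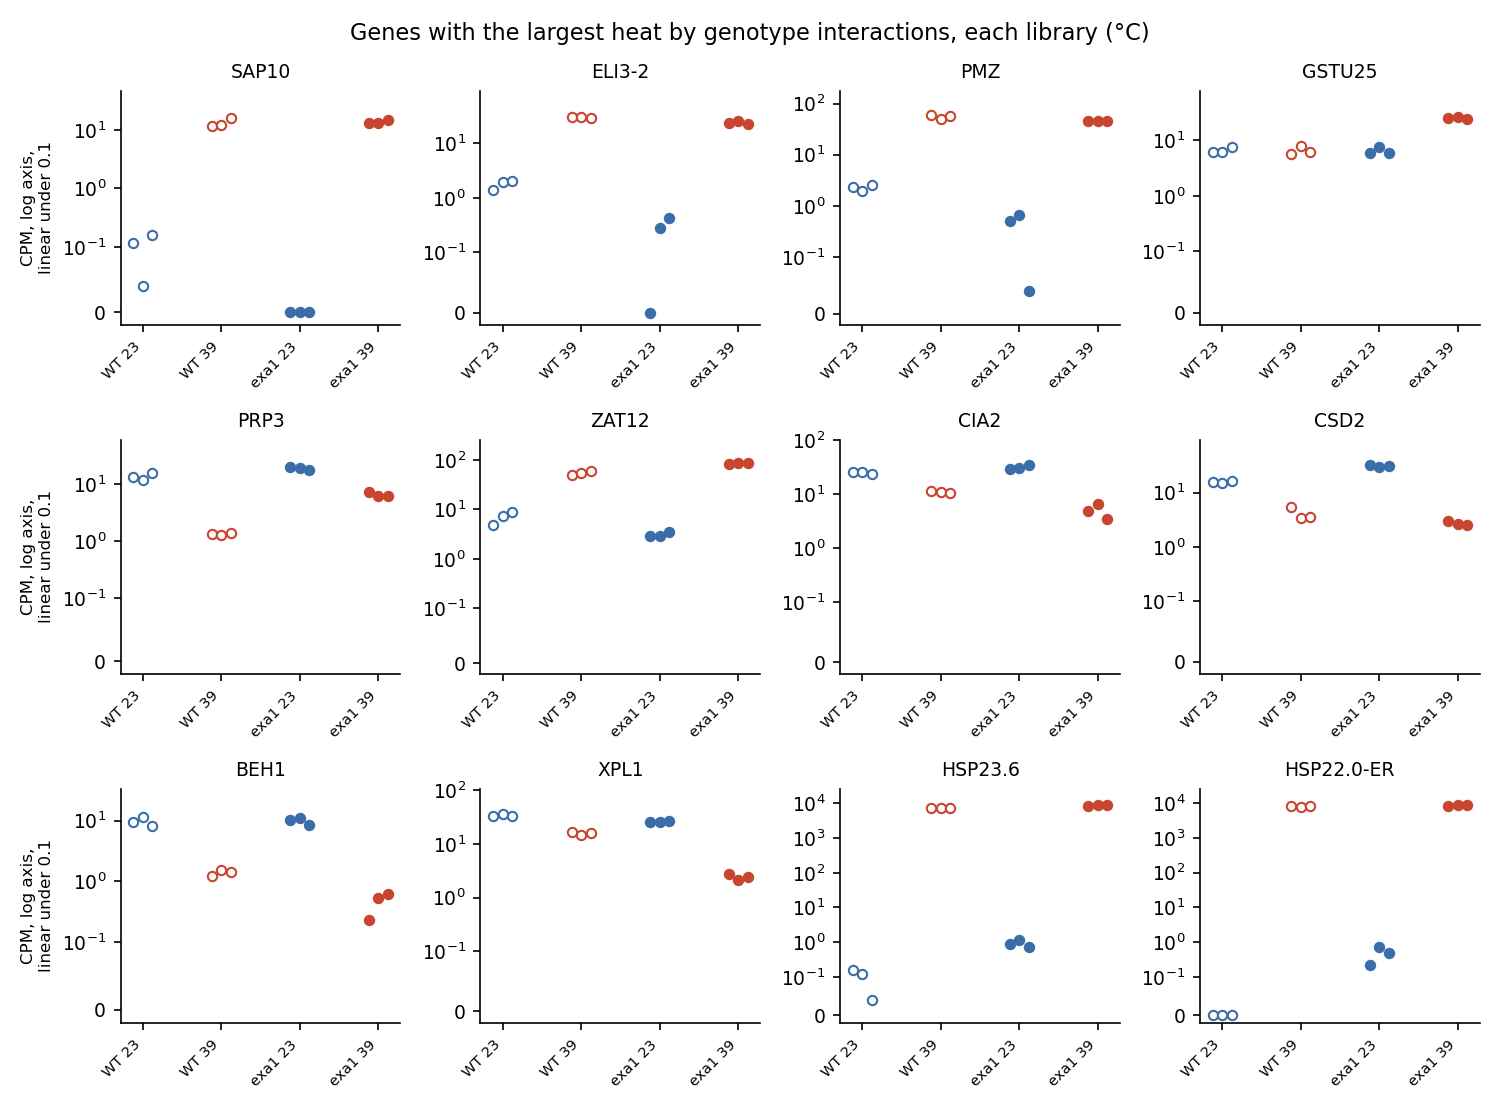
Level in each library of the 12 genes with the largest called heat by genotype interactions, 6 positive and 6 negative, among those with a symbol and a mean of at least 5 CPM over the 12 libraries, as TMM-scaled CPM on a log axis that is linear under 0.1, for wild type (open) and exa1-1 (filled) at 23 °C (blue) and 39 °C (red). In GSTU25 only exa1-1 at 39 °C stands apart (24.9 to 26.6 CPM), whereas in HSP22.0-ER and HSP23.6 the genotypes differ at 23 °C and lie together at 39 °C.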

How the data were processed

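Polysome-bound mRNA of 9-day-old Arabidopsis seedlings was sequenced, with 3 libraries per group. The authors deposited whole-number counts per gene and FPKM values. HISAT2 2.0.4, HTSeq 0.6.1p1 and the TAIR10 build are named in the submitters' processing notes, and their settings for strand, overlapping genes and reads with several matches are not given in the sources used here. The counts of the 12 heat libraries were fitted together (1 mean per group) with edgeR 4.0.16 in R 4.3.3, by its quasi-likelihood test with Benjamini-Hochberg adjustment over all 20923 genes that passed filterByExpr (minimum count 10, minimum total 15), at an adjusted p of 0.05. TMM was the main scaling and library totals are given beside it. The deposited FPKM values served for levels compared between genes and for limma 3.58.1 fits on log2(FPKM + 1) and log2(FPKM + 0.1) where the mean FPKM reached 0.5. DESeq2 1.42.0 was another alternative. Sequences and annotations were read from RefSeq's TAIR10.1, and tables and figures were made with Python 3.11.15, pandas 2.3.3, numpy 2.4.6, scipy 1.17.1 and matplotlib 3.10.9. The fit was also run on simulated data in which 200 of 20923 genes changed. It recovered 58.0% of 1.3-fold and 90.0% of 2-fold changes in the heat contrast. For the interaction these were 20.0% and 72.0%. Of 157 genes called for heat 4 were false, and of 118 for the interaction 10. With so few changed genes the simulation cannot test the scaling.

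The members and gene lists were chosen with earlier results of these data known, and the ribosomal protein, organelle and RNA class lists were formed by annotation after the data were seen. Genes named are EXA1, the 12 called genes with the largest rises and the 12 with the largest falls among those with a symbol, at least 5 CPM on average and no overlap between groups, the 6 largest positive and 6 largest negative interactions, members of the chaperone, heat shock factor, regulator and endoplasmic reticulum lists, and of other lists the 4 called members with the largest changes and members not called. Not every gene that fits this rule is reported here. Folds against 0 counts use 3 counts over the group as a floor, and intervals (95%) cover counting error only. No 2 replicates were identical (12 pairs, chi-square per degree of freedom 1.794 to 6.405).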

Additional observations from a re-analysis of the deposited data

Results flagged for a closer look

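Genes named in the text are given here where the heat by genotype interaction was called (edgeR's quasi-likelihood test, Benjamini-Hochberg adjusted p under 0.05) and at least 1 on the log2 scale, so that the heat response differed between exa1-1 and wild type by the test of the difference itself. Positive values, meaning more rise or less fall in exa1-1, were 4.18 for SAP10, 3.10 for AOX1D, 2.65 for ELI3-2, 2.17 for PMZ, 1.99 for GSTU25, 1.81 for PRP3, 1.77 for ZAT12, 1.57 for the galactinol synthase GOLS4 and 1.12 for the jasmonate enzyme AOC1. Negative values among the small heat shock proteins were -6.06 for HSP22.0-ER, -2.81 for HSP23.6, -1.56 for HSP17.6A-CI and -1.0 for HSP18.2. The values of SAP10, HSP22.0-ER and HSP23.6 rest on counts at or near 0 at 23 °C. There SAP10 had 0 counts in exa1-1 and HSP22.0-ER had 0 in wild type. ELI3-2 in exa1-1 and HSP17.6A-CI in wild type were also at low levels at 23 °C, given above. The heat value of AOX1D in exa1-1 was 4.09, and 3.54 to 4.98 with 1 library left out. SAP10 lost its call without wild-type replicate 3 at 23 °C. Among other genes the negative values were -2.31 for XPL1, -1.74 for the defence gene PR2, -1.63 for BEH1, -1.58 for the superoxide dismutase CSD2, -1.48 for CIA2 and -1.25 for the cyclin CYCB1;3. The groups have 3 libraries each, too few for a check of single libraries that stand apart.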

How the results depend on the processing

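Library scaling moved the heat counts, and a 2-fold minimum the interaction counts. Genes called higher in exa1-1 numbered 2888 with library totals, 2815 with limma on log2(FPKM + 1) and 2803 on log2(FPKM + 0.1), and genes called lower numbered 15679, 14705 and 14695. A minimum 2-fold change left 3578 higher and 5353 lower genes, and 221 positive and 136 negative interactions. Positive interactions numbered 1055 on log2(FPKM + 0.1). The FPKM fits keep no TMM factor. Leaving out 1 of the 12 libraries gave 7677 to 7968 higher and 8329 to 8978 lower genes, with 1397 to 1710 positive and 1378 to 2241 negative interactions. The 2241 negative interactions were found without wild-type replicate 3 at 23 °C. RLE size factors, DESeq2, leaving out organellar genes, other filters on low counts and other sets of libraries kept these counts within 1.5 times of the main ones.

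The log2 fold changes of 16 named genes changed sign with the scaling. In the order library totals, log2(FPKM + 1) and log2(FPKM + 0.1), they were NF-YC10 (-0.21, -0.20 and -0.21), CRT3 (-0.88, -0.84 and -0.88), HAB2 (-0.96, -0.84 and -0.94), LHCB1.3 (-0.20, -0.20 and -0.20), CRT1A (-0.19, -0.19 and -0.19), RBCS1A (-0.40, -0.40 and -0.40), HSFC1 (-0.39, -0.32 and -0.37), OM66 (-0.68, -0.27 and -0.61), EIF4G (-0.91, -0.83 and -0.90), HSBP (-0.39, -0.38 and -0.38), HSFA4A (-0.60, -0.51 and -0.59), HSFA1B (-0.00, -0.01 and -0.01), RBCS1B (-0.82, -0.80 and -0.81), EXA1 (-0.78, -0.41 and -0.72), HSP90.4 (-0.06, -0.05 and -0.06) and BAG7 (-0.18, -0.17 and -0.18). Of 177 genes named with a value, 166 were called, and HSFA8 and HSFB3 lost the call without some library.

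Same-numbered replicates did not deviate together (18 correlations from -0.0489 to 0.0498, 0 over 0.1), so the numbers do not pair the libraries. The replicate block gave 7954 higher and 8636 lower genes, with 1847 positive and 1709 negative interactions. Depth limits genes with few counts at 23 °C, whose folds depend on the prior count.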

Other observations

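Transcripts of the organelle genomes, which are not capped or translated in the cytosol, were also counted in the polysomal libraries. Of 30 tested genes of the mitochondrial genome 28 were higher at 39 °C in exa1-1 and 0 lower with TMM (background 38.0% and 41.4%), with a median log2 fold change of 3.66, and with library totals 25 were higher and 2 lower. Their share of all counts was 0.0290%, 0.0325% and 0.0327% at 23 °C and 0.130%, 0.134% and 0.129% at 39 °C. Most of these counts came from the ribosomal RNA genes ATMG00020 (0.0241% at 23 °C and 0.06% at 39 °C on average) and ATMG01390 (0.00525% and 0.0598%). In wild type the mitochondrial share was 0.0382% and 0.117%. Of 47 tested genes of the chloroplast genome 13 were higher and 14 lower with TMM, and their share was 0.0203% ± 0.000818 (SD, n = 3) at 23 °C and 0.0154% ± 0.000444 at 39 °C.

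Among RNA classes in the annotation, 176 of 526 tested long noncoding RNA genes were higher and 174 lower with TMM, with a median of -0.02. The background was 38.0% higher and 41.4% lower. Of 32 tested small nucleolar RNA genes 15 were higher and 6 lower, and of 121 tested genes of other noncoding RNA 22 were higher and 69 lower, with a median of -0.88. With library totals these counts were 100 and 273, 8 and 13, and 14 and 92 (background 13.8% and 74.9%). No strand setting is given in the sources used here, so reads of antisense RNAs and of the genes they overlap cannot be told apart.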
